A study of Mus musculus with 7 samples.

Results

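Of the 23361 genes quantified in macrophages sorted from injured mouse sciatic nerve, 10 are described here: the Toll-like receptor genes Tlr1, Tlr2, Tlr3, Tlr4, Tlr6, Tlr7, Tlr8, Tlr9 and Tlr13, and Cd14. They were taken by gene symbol, and all 10 were measured in all 7 libraries. The cells came from wild-type BALB/cJ mice, an inbred strain, in which the left sciatic nerve was cut and its stumps were joined through an inert conduit. Cells with the surface profile Lin-F4/80+CD14+CD11b+CD16/32+ were sorted from the conduit at day 5 (3 libraries), day 14 (2 libraries) and day 28 (2 libraries) after the operation. All mice were operated under isoflurane and were given meloxicam, an anti-inflammatory analgesic, around the operation. No mutant allele was involved, the labels give no treatment that differed between days, and no uninjured nerve was among the libraries, so each comparison is between days after repair. Age and sex of these mice, and whether a library holds cells of a single mouse or of a pool, are not given in the sources used here, so the p-values measure the spread between these libraries, which may be technical. Because CD14 protein was a criterion of the sort, the level of Cd14 was measured in cells selected for it. Sorted cells were read in bulk, and fewer cells of a type cannot be told apart from less RNA per cell.

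Toll-like receptors are membrane proteins of innate immunity that bind microbial molecules and products of damaged cells. TLR1, TLR2, TLR4 and TLR6 act at the cell surface, where TLR2 pairs with TLR1 or TLR6 to bind lipoproteins and TLR4 binds lipopolysaccharide with the help of MD-2 and CD14. TLR3, TLR7, TLR8, TLR9 and TLR13 signal from endosomes and bind nucleic acids. The receptors signal through the adaptors MyD88, used by nearly all of them, and TRIF, used by TLR3 and TLR4, towards NF-kB and interferon regulatory factors. After nerve injury, macrophages take up myelin and cell debris, which can carry ligands of both kinds.

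The libraries held 18027190 to 35247116 fragments assigned to genes, and each fragment is a single-end read. Every member was covered well above the detection floor of 3 fragments, from 210 fragments for Tlr3 in its sparsest library to 94816 for Cd14 in its richest. Replicate libraries were apart by more than sampling of reads allows (chi-square divided by its degrees of freedom 16.4 to 23.0 on day 5, 65.9 on day 14, 49.9 on day 28). The day 14 libraries were unlike each other: over 7556 genes, replicate 1 lay nearer to day 5 than to day 28 (mean absolute log2 difference 0.223 against 0.285), and replicate 2 lay nearer to day 28 (0.210 against 0.346 to day 5). The defining macrophage genes were present throughout, with a summed level of 13757 to 21058 FPKM for Emr1, Itgam, Fcgr3, Fcgr2b, Csf1r, Cd68, Lyz2 and Mertk. FPKM, a fragment count adjusted for transcript length and library size, is the unit used wherever levels of different genes are set side by side.

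Tlr1 and Tlr6, which encode the alternative partners of TLR2, are neighbours on the minus strand of chromosome 5 (GRCm38, chr5:64924679-64933563 and chr5:64952031-64960097), and part of their coding sequence is identical. This sequence is shown because reads that fall in it could belong to either gene. The longest identical run was 229 bases, coding bases 1468 to 1696 of 2385 in Tlr1 (minus strand, chr5:64925537-64925765) and 1507 to 1735 of 2418 in Tlr6 (minus strand, chr5:64953828-64954056). Capitals are not used, since no base in it differs.
Tlr1 and Tlr6 shared run: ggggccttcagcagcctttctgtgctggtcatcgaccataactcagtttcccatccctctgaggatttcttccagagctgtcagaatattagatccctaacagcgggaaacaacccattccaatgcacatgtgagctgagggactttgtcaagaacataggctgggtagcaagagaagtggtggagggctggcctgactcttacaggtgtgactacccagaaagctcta
Of all 75-base windows, 340 of 2951 in the Tlr1 transcript (11.5%) also occurred in Tlr6, and 340 of 3603 in Tlr6 (9.44%) in Tlr1. How such reads were shared between both genes is not given in the sources used here, so their levels are uncertain to that extent. In Tlr3 (chromosome 8, 45395665 to 45411080, minus strand), 43 of 4333 windows (0.992%) also occurred in the antisense gene Gm45542, which overlaps it. No window of Tlr2, Tlr4, Tlr7, Tlr8, Tlr9, Tlr13 or Cd14 occurred in another annotated transcript. Tlr7 (167304929 to 167330558) and Tlr8 (167242696 to 167264329) are also neighbours, on the minus strand of chromosome X, but their coding sequences shared no identical run longer than 13 bases.

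The 250 bases before the annotated start of Tlr2 and Tlr3 are shown because both genes were lower at day 28 and each window held a match to the NF-kB consensus, given in capitals. The sequences are those of RefSeq on GRCm38.p6, minus strand, chr3:83841609-83841858 for Tlr2 and chr8:45410381-45410630 for Tlr3. By GENCODE, the annotation used for the loci, the Tlr3 window lies inside the Tlr3 locus given above. Part of the Tlr2 window lies inside the Tlr2 locus (chr3:83836272-83841767).
Tlr2: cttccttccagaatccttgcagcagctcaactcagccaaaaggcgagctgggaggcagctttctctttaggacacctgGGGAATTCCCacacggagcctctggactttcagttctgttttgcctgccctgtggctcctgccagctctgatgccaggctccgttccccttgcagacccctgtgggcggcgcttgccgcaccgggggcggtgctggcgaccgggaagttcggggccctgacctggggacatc
Tlr3: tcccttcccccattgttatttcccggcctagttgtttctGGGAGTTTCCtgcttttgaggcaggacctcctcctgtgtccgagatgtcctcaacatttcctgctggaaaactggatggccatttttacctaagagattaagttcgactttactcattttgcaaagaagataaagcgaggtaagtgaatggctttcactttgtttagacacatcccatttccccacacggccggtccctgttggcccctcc
The matches began 172 bases before the start of Tlr2 and 211 bases before that of Tlr3. Neither window of Tlr1, which was also called lower, held such a match, and Tlr4, Tlr7 and Cd14 had no entry. Both strands were searched in the windows of 7 members, and of all 32851 windows of this length 5.00% held such a match. A match to the PU.1 motif GAGGAAGT, present in 2.44% of all windows, was found before 1 of 2 annotated starts of Tlr1. The interferon response motif, GAAA followed by NN and a second GAAA, present in 2.98%, was found as 2 overlapping matches before 1 of 2 starts of Tlr6. Windows of Tlr8, Tlr9 and Tlr13 held none of the 3 motifs. The window of Tlr6 that held matches also lies inside the Tlr6 locus by GENCODE. All matches are descriptions of the sequence and not of binding.

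Cd14 was the most abundant transcript of the group, at rank 17 of 23361 genes by mean FPKM, and Tlr2 followed at rank 311. Below them came Tlr13 (rank 1740) and Tlr7 (2019), then Tlr1 (2732), Tlr8 (2750) and Tlr4 (3536), and last Tlr9 (4539), Tlr6 (6342) and Tlr3 (8180). At day 5 the libraries of Cd14, of Tlr2 and of the genes after them did not overlap, whereas Tlr13 overlapped with Tlr7, Tlr1 with Tlr8, and Tlr8 with Tlr4. By day 28 Tlr13, at 45.3 ± 4.47 FPKM (SD, n = 2), was apart from Tlr7 at 31.0 ± 0.265 FPKM, Tlr8 had passed Tlr1, and Tlr9 overlapped with Tlr6.

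**Figure D1:**
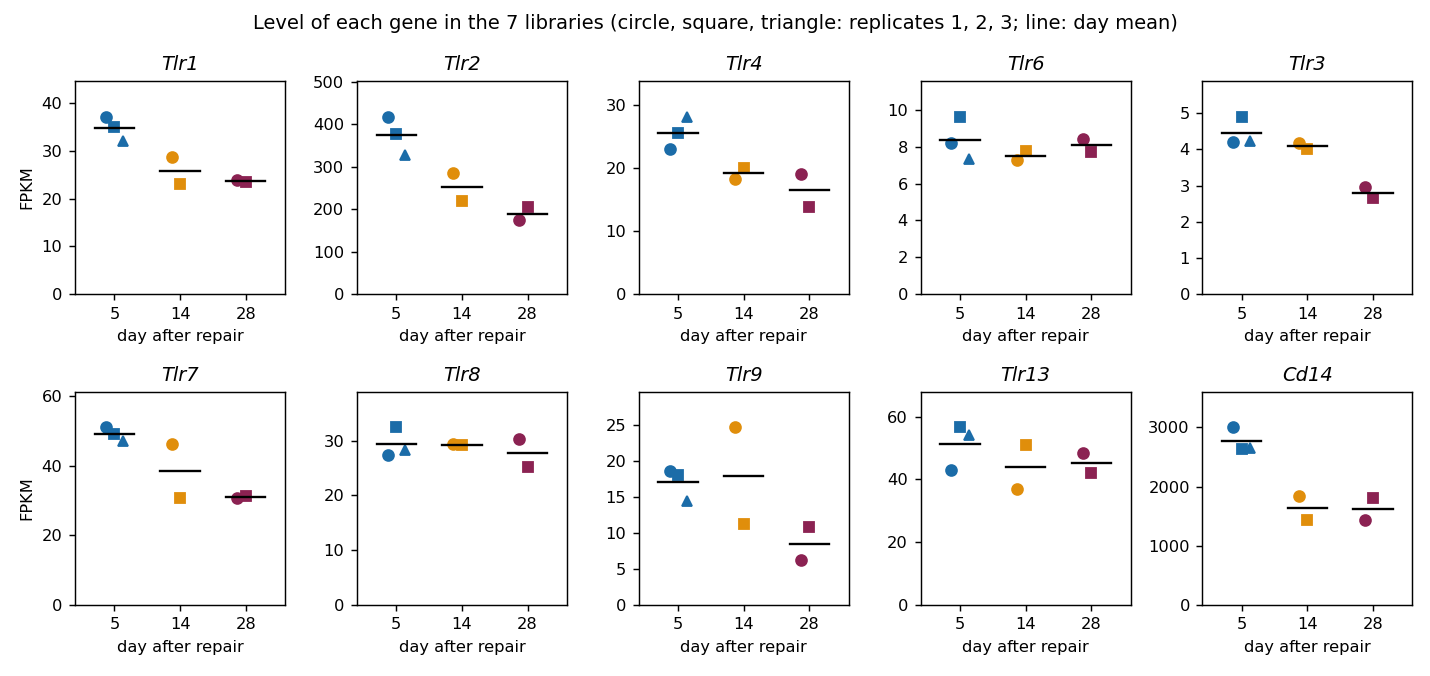
FPKM of each gene in the 7 libraries against day after repair, with a separate linear axis from 0 for each gene. Points are libraries and black lines are the means of each day. Tlr2, Tlr1, Tlr4, Tlr3, Tlr7, Tlr9 and Cd14 have day 28 points below every day 5 point, and Tlr6, Tlr8 and Tlr13 have overlapping points. Tlr9 has its highest point in a day 14 library.

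Among the surface receptors, Tlr2, the shared partner of TLR1 and TLR6, was the most abundant, and of the called members it had the largest difference. Its level was 418, 377 and 327 FPKM in the day 5 libraries, 285 and 219 FPKM at day 14, and 174 and 205 FPKM at day 28. All 3 days were separated, without overlap between libraries. Between days 5 and 28 it fell by 0.97 on the log2 scale (SE 0.16, adjusted p = 0.00657, quasi-likelihood F test of edgeR, adjusted by Benjamini and Hochberg over 12858 genes), to 51.2% of its day 5 level. It was no longer called without day 28 replicate 1 (log2 fold change -0.85, adjusted p = 0.0729), and was called without any other single library. The steps from day 5 to 14 (-0.56, adjusted p = 0.0772) and from day 14 to 28 (-0.41, adjusted p = 0.394) did not pass the test. The first step was -0.76 without day 14 replicate 1 and -0.38 without day 14 replicate 2.

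Tlr1, which encodes the partner that with TLR2 binds triacylated lipoproteins, was expressed at 37.2, 34.9 and 32.0 FPKM at day 5, 28.7 and 23.0 FPKM at day 14, and 23.8 and 23.6 FPKM at day 28. Both later days lay below day 5 in every library. The difference between days 5 and 28 was past the threshold, at -0.55 (SE 0.12, adjusted p = 0.0206, edgeR), and was not without day 5 replicate 1 (adjusted p = 0.0782), day 5 replicate 2 (0.0692), day 28 replicate 1 (0.113) or day 28 replicate 2 (0.0746). At day 14 the difference from day 5 was -0.41 (adjusted p = 0.0864, edgeR). This difference was -0.57 without day 14 replicate 1 and -0.27 without day 14 replicate 2. Tlr6, which encodes the other partner and binds diacylated lipoproteins with TLR2, stood at 8.19, 9.64 and 7.34 FPKM at day 5, 7.25 and 7.78 FPKM at day 14, and 8.43 and 7.71 FPKM at day 28. The libraries of all 3 days overlapped. The log2 difference between days 5 and 28 was -0.040, with a 95% interval of -0.38 to 0.30 (adjusted p = 0.883, edgeR). Tlr1 exceeded Tlr6 by 4.53, 3.62 and 4.36 times in the day 5 libraries, 3.95 and 2.95 times at day 14, and 2.82 and 3.06 times at day 28. The day 28 ratios lay below all day 5 ratios, and the identical stretch of both genes bears on each of these ratios.

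Tlr4, the lipopolysaccharide receptor gene, was at 23.1, 25.6 and 28.2 FPKM at day 5, 18.4 and 20.002 FPKM at day 14, and 19.1 and 13.9 FPKM at day 28. Day 5 lay above both later days, and the libraries of days 14 and 28 overlapped. Its fall between days 5 and 28, to 65.0% of the day 5 level (95% interval of the log2 difference -0.97 to -0.27, adjusted p = 0.0278, edgeR), was not called without day 5 replicate 1 (adjusted p = 0.0524), 2 (0.0791) or 3 (0.0895), nor without day 28 replicate 2 (-0.41, adjusted p = 0.132). In the shift from day 5 to 14 the log2 difference was -0.41 (adjusted p = 0.147). Ly96, which encodes the TLR4 partner MD-2, was at 1.42 to 1.99 times the FPKM of Tlr4 in the day 5 libraries, 1.57 and 1.58 times at day 14, and 1.84 and 1.83 times at day 28. Its level was 41.3 ± 4.01 FPKM at day 5 (SD, n = 3) and 30.2 ± 6.94 FPKM at day 28 (n = 2), and its difference of -0.43 did not pass the test (adjusted p = 0.143).

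Cd14 encodes the co-receptor that hands lipopolysaccharide to TLR4 and MD-2. Its level was 3003, 2635 and 2659 FPKM at day 5, 1837 and 1431 FPKM at day 14, and 1433 and 1799 FPKM at day 28. The later days overlapped fully with each other and lay below day 5. Cd14 was the only member called lower at day 14 than at day 5 (95% interval of the log2 difference -1.11 to -0.39, adjusted p = 0.0357, edgeR). Between days 14 and 28 the difference was -0.011, with an interval of -0.39 to 0.37. The day 14 call was lost without day 5 replicate 1 (adjusted p = 0.111), 2 (0.0989) or 3 (0.0985) and without day 14 replicate 2 (0.112). The day 28 call (interval -1.12 to -0.41, adjusted p = 0.0145) was lost without day 5 replicate 1 (0.0556) or day 28 replicate 1 (0.115). Cd14 exceeded Tlr2 by 7.18, 6.99 and 8.14 times at day 5, 6.44 and 6.53 times at day 14, and 8.23 and 8.76 times at day 28. The day 28 ratios lay above all others, and the ratio was not tested.

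Of the endosomal receptors, Tlr7, the gene of a single-stranded RNA sensor, was at 51.1, 49.2 and 47.2 FPKM at day 5, 46.2 and 30.9 FPKM at day 14, and 30.9 and 31.2 FPKM at day 28. Replicate 1 of day 14 lay close to day 5 and replicate 2 at the day 28 level. The decrease from day 5 to 28 was 0.65 on the log2 scale (SE 0.16, adjusted p = 0.0262, edgeR), and the call was lost without any of the day 5 libraries (adjusted p = 0.0871, 0.0764 and 0.0636 without replicates 1, 2 and 3) or of the day 28 libraries (0.144 and 0.0988). The step to day 14 was -0.35 (adjusted p = 0.220, edgeR). With single libraries left out it ran from -0.66 (without day 14 replicate 1) to -0.086. The step from day 14 to 28 was -0.30 (adjusted p = 0.509, edgeR), and ran from -0.56 (without day 14 replicate 2) to 0.0064 in such fits. Tlr8, its neighbour on chromosome X and also an RNA sensor gene, was not called in any comparison. Its level was 27.4, 32.5 and 28.4 FPKM at day 5, 29.4 and 29.2 FPKM at day 14, and 30.4 and 25.3 FPKM at day 28, with overlap between all days. Its log2 difference between days 5 and 28 was -0.064, with a 95% interval of -0.34 to 0.21 (adjusted p = 0.764). The ratio of Tlr7 to Tlr8 was 1.87, 1.52 and 1.67 at day 5, 1.57 and 1.06 at day 14, and 1.02 and 1.23 at day 28, with each day 28 ratio below each day 5 ratio.

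Tlr3, the gene of the double-stranded RNA receptor that signals through TRIF, had the lowest level of the members, with 4.22, 4.91 and 4.22 FPKM at day 5, 4.18 and 4.005 FPKM at day 14, and 2.97 and 2.64 FPKM at day 28. Day 14 stayed close beneath day 5, and day 28 lay below both. From day 5 to 28 it fell by 0.65 (SE 0.15, adjusted p = 0.0202, edgeR), a call lost without any day 5 library (adjusted p = 0.0534, 0.0761 and 0.0503 without replicates 1, 2 and 3) or any day 28 library (0.0725 and 0.0844). The steps were -0.11 to day 14 (adjusted p = 0.679) and -0.53 from there to day 28 (adjusted p = 0.226). Tlr13, the gene of a receptor for bacterial ribosomal RNA, had the highest mean level of the endosomal members, although Tlr7 was higher in day 5 replicate 1 and day 14 replicate 1. It was at 42.9, 56.6 and 54.1 FPKM at day 5, 36.9 and 50.9 FPKM at day 14, and 48.5 and 42.1 FPKM at day 28. Its days overlapped throughout. The log2 difference between days 5 and 28 was -0.16, with a 95% interval of -0.55 to 0.23 (adjusted p = 0.562).

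Tlr9, the gene of the receptor for unmethylated CpG DNA, had a wider spread relative to its mean than any other member at days 14 and 28, though not at day 5. It was at 18.6, 18.1 and 14.4 FPKM at day 5, 24.6 and 11.2 FPKM at day 14, and 6.20 and 10.8 FPKM at day 28. Day 14 replicate 1 was the highest of the 7 libraries and day 28 replicate 1 the lowest, and both day 28 libraries lay below all others. The log2 difference between days 5 and 28 was -0.998 (SE 0.33, adjusted p = 0.0686, edgeR), larger in size than that of Tlr2 but not called. Over 15 alternatives this difference ranged from -1.44 to -0.64, and only 5 of them called it. These were the fits without day 14 replicate 1 or 2, with only both days fitted (adjusted p = 0.00573, edgeR), without the filter (0.00333, edgeR) and by DESeq2 (0.00710). Calls among all genes were 21.6% with only both days fitted, 14.3% without the filter and 19.3% with DESeq2, against 15.2% in the fit reported. From day 14 to 28 the difference was -1.08 (adjusted p = 0.259), -1.54 without day 14 replicate 2 (adjusted p = 0.00601) and -0.41 without day 14 replicate 1. Single genes from the lists of other cell types, picked with their values known, were also highest in day 14 replicate 1. Ly6c2, a monocyte gene, was at 114 FPKM there, against 57.1 to 107 FPKM at day 5, 18.2 FPKM in replicate 2 and 8.31 to 12.2 FPKM at day 28. Irf8, from the list of conventional dendritic cell genes, was at 119 FPKM in day 14 replicate 1 (72.1 to 106 FPKM at day 5). Xcr1, Clec9a and Itgae of that list stayed under 1 FPKM. The B cell gene Cd79b was at 10.3 FPKM in day 14 replicate 1 (6.41 to 9.26 FPKM at day 5). The monocyte list as a whole was not highest there, with a sum of 200 FPKM against 166 to 211 FPKM at day 5. Further B cell genes were at or near 0, with at most 6 fragments of Ms4a1, 1 of Pax5 and 11 of Cd79a in any library. The 5 plasmacytoid dendritic cell genes were highest at day 5, with a sum of 17.7 to 19.5 FPKM against 16.6 and 12.4 FPKM in day 14 replicates 1 and 2 and 10.2 to 11.5 FPKM at day 28. Their defining gene Siglech was at 0 to 0.478 FPKM in all libraries. The part of these cells in the Tlr9 levels was not tested.

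In the comparison of day 28 with day 5, 6 of the 10 members were called, and all 6 were lower, against 15.2% of all 12858 genes called in either direction and 7.51% called lower (edgeR, adjusted p under 0.05). The called members were 3 of 4 surface receptor genes (Tlr1, Tlr2 and Tlr4), 2 of 5 endosomal ones (Tlr3 and Tlr7) and Cd14. All 10 members had a log2 fold change below 0, as had 46.8% of all genes, and the median was -0.63 for the members and 0.033 for all genes. In 7 members both day 28 libraries lay below all day 5 libraries, which held for 25.6% of all genes. The count was 1 without day 5 replicate 1, 2 without day 5 replicate 2, 3 without day 5 replicate 3, 1 without day 28 replicate 1, 2 without day 28 replicate 2, and 7 without either day 14 library. In these fits the share of all genes called was 6.38%, 7.13%, 7.54%, 3.55%, 7.99% and 21.5 to 21.6%, in the same order. None of the 6 reached the 2-fold difference that the stringent rule of the study requires, which 3.52% of all genes met with edgeR.

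In the comparison of day 14 with day 5, 1 of 10 members was called, and 4.78% of all genes, with 1.94% called lower. No member met the stringent rule there, and 1.17% of all genes did. At an unadjusted p under 0.05 there were 4 (Cd14, Tlr1, Tlr2 and Tlr4), against 24% of all genes, and in 6 members the libraries did not overlap, against 21.4% of all genes in that direction. Between days 14 and 28 no member was called by edgeR, and 0.0622% of all genes were, 0.0311% lower. In 3 members both day 28 libraries lay below both day 14 libraries, against 19.7% of all genes. There were 3 members at an unadjusted p under 0.05 (Tlr2, Tlr3 and Tlr9), against 12.2% of all genes, and DESeq2 called 1 of them, Tlr9 (adjusted p = 0.0417), and 2.58% of all genes. Without day 14 replicate 1, 4 members were called between days 5 and 14 (Cd14, Tlr1, Tlr2 and Tlr7), as were 13.6% of all genes. Without day 14 replicate 2, 2 were called between days 14 and 28 (Tlr7 and Tlr9), as were 5.07% of all genes. The comparisons with day 5 share its libraries, and those with day 14 share the libraries that were unlike each other.

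**Figure D2:**
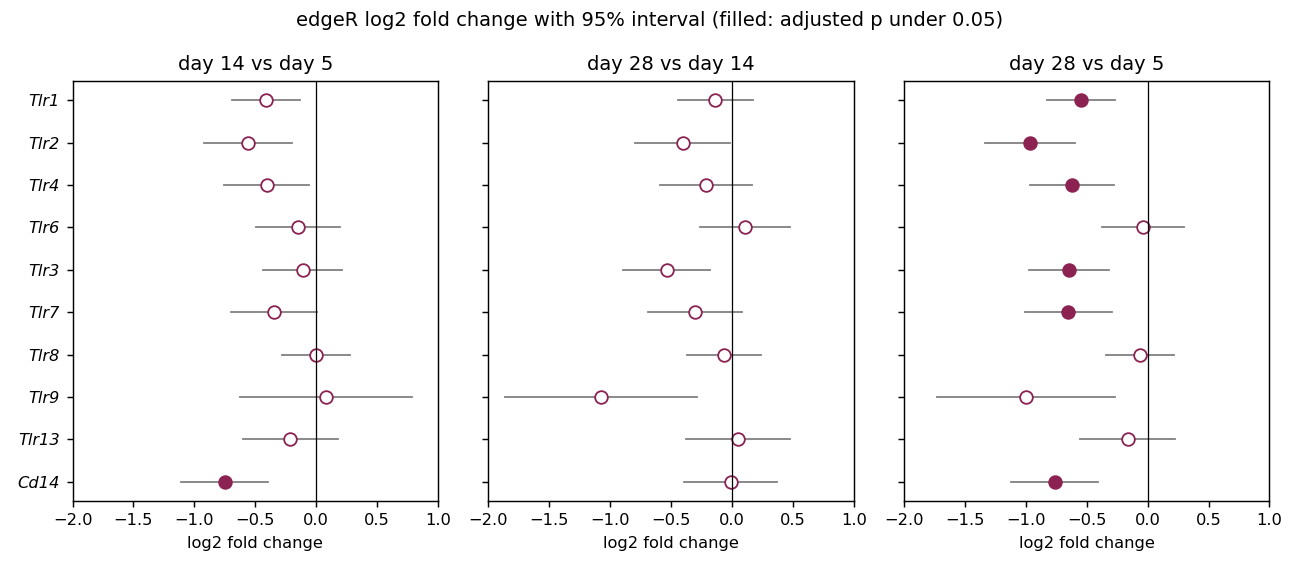
Log2 fold change of each member in the 3 comparisons (horizontal axis) with its 95% interval as a line, from edgeR. Filled points had an adjusted p under 0.05: Cd14 alone for day 14 vs day 5, none for day 28 vs day 14, and Tlr1, Tlr2, Tlr4, Tlr3, Tlr7 and Cd14 for day 28 vs day 5.

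The makeup of the receptor transcripts also differed between days. The summed level of the 9 Toll-like receptor genes was 631, 608 and 543 FPKM at day 5, 481 and 396 FPKM at day 14, and 344 and 363 FPKM at day 28, with no overlap between days. Tlr2 made up 62.8% ± 3.13 of that sum at day 5 (SD, n = 3), 57.3% ± 2.82 at day 14 (n = 2) and 53.6% ± 4.30 at day 28 (n = 2). The endosomal receptor genes together made up 22.9 to 27.3% in the day 5 libraries, 29.4 to 31.9% at day 14 and 30.9 to 34.5% at day 28. Their share was thus higher in every later library than in any day 5 library, by 7.15 percentage points on average at day 28, while their summed level was 151 ± 8.90 FPKM on day 5 and 115 ± 4.78 FPKM on day 28. Of the endosomal genes, Tlr13 and Tlr8 gained most in share, from 8.69% and 4.97% of the sum at day 5 to 12.8% and 7.90% at day 28. Their mean levels were not higher at day 28, at 51.2 and 45.3 FPKM for Tlr13 and 29.4 and 27.8 FPKM for Tlr8 on days 5 and 28. The mean level of Tlr2 was 374 FPKM on day 5 and 190 FPKM on day 28. Without Tlr13 in the sum, the endosomal share differed by 4.32 percentage points between days 28 and 5, and by 0.162 in place of 2.10 between days 28 and 14. These shares describe the members and were not tested.

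**Figure D3:**
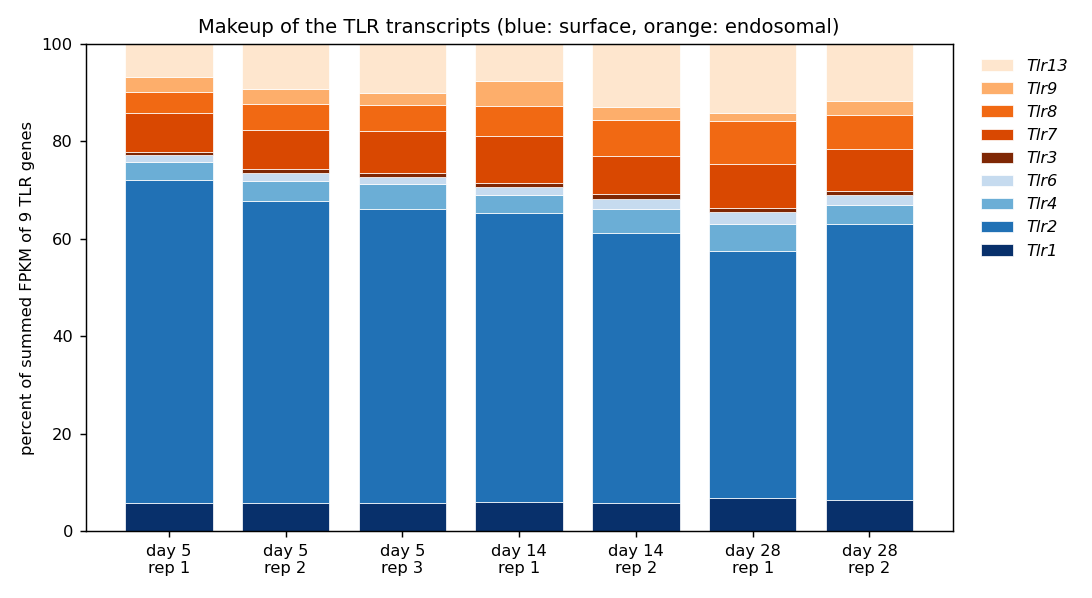
Share of each receptor gene in the summed FPKM of the 9 Toll-like receptor genes (vertical axis, percent), with 1 bar for each library. The surface receptors, in blue, make up a smaller part of each day 14 and day 28 bar than of any day 5 bar, mostly through Tlr2, and the endosomal ones, in orange, make up 22.9 to 27.3% at day 5 and 30.9 to 34.5% at day 28.

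Set against the day 5 mean, each library showed where it departed. In day 14 replicate 1, Tlr7 (log2 ratio -0.09) and Tlr3 (-0.09) were near the day 5 mean, Tlr9 was above it (0.54) and Cd14 was already at -0.59. In day 14 replicate 2, Tlr7 (-0.67), Tlr1 (-0.60) and Cd14 (-0.95) stood at about their day 28 values, while Tlr3 was at -0.15. Tlr13 ran the other way, at -0.47 in replicate 1 and -0.01 in replicate 2.

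**Figure D4:**
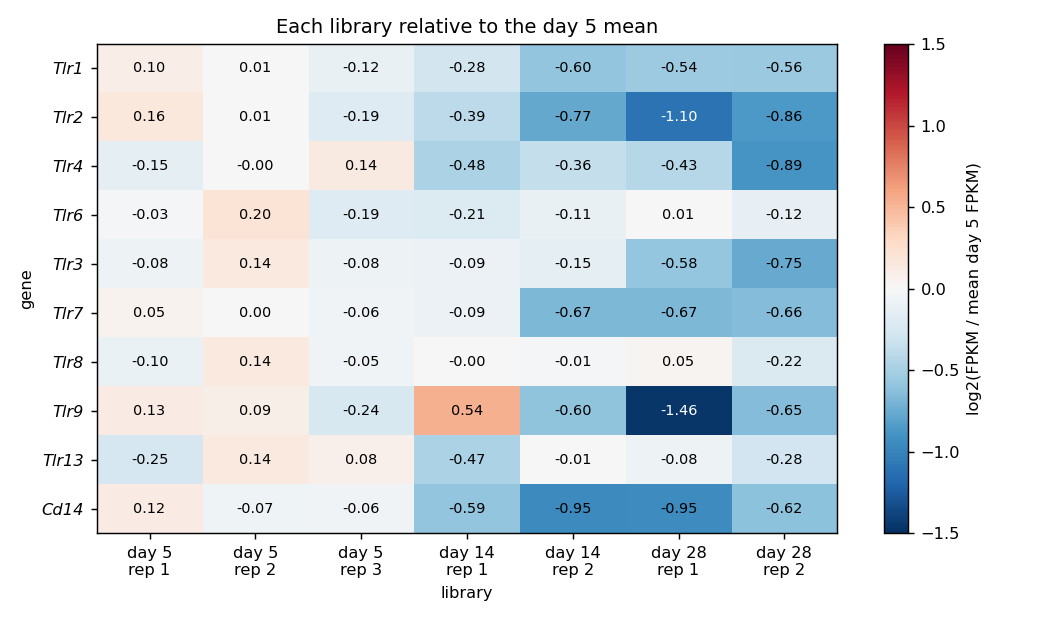
Log2 ratio of FPKM to the mean of the day 5 libraries for each member (rows) in each library (columns), blue for lower and red for higher. Rows of Tlr6 and Tlr8 remain pale, that of Tlr13 is blue in day 14 replicate 1 (-0.47), those of Tlr2 and Cd14 are blue in every later library, and Tlr9 is red (0.54) in day 14 replicate 1 and darkest blue (-1.46) in day 28 replicate 1.

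Of the remaining Toll-like receptor genes of the mouse, Tlr5 was close in level to the member Tlr3 (rank 8460 against 8180), and Tlr11 and Tlr12 were near 0. Tlr5, the flagellin receptor gene, was at 3.50, 4.55 and 5.34 FPKM at day 5, 3.26 and 1.89 FPKM at day 14, and 1.86 and 3.41 FPKM at day 28. Its later libraries lay below those of day 5, and no comparison passed the test (lowest adjusted p = 0.138, edgeR). Tlr11 had 0 to 16 fragments and Tlr12 0 to 11 fragments per library, and neither was tested.

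Of 62 tested genes that deliver, fold, transmit or restrain Toll-like receptor signals, 11 were called between days 5 and 28 (17.7%, against 15.2% of all genes), 7 lower and 4 higher. Their median log2 fold change was -0.27, against 0.033 for all genes. Among 5 adaptor genes 2 were called (40%, against 15.2% of all genes), both lower. Myd88, the gene of the adaptor used by nearly all the receptors, was at 99.0, 91.2 and 87.8 FPKM at day 5, 69.4 and 55.9 FPKM at day 14, and 45.0 and 44.0 FPKM at day 28. Its 3 days did not overlap, and it fell by 1.05 from day 5 to 28 (SE 0.13, adjusted p = 0.00183, edgeR) and by 0.56 from day 5 to 14 (adjusted p = 0.0407). Pik3ap1, which encodes the adaptor BCAP, fell by 0.73 (adjusted p = 0.0459). The day 14 call of Myd88 was lost without any day 5 library (adjusted p = 0.102 to 0.127), without day 14 replicate 2 (0.158) and without either day 28 library (0.0604 and 0.0610). That of Pik3ap1 was lost without any library of day 5 (0.0685 to 0.137) or day 28 (0.0913 and 0.255). Ticam1, which encodes TRIF, had means of 18.3 FPKM on day 5 and 15.2 FPKM on day 28 and was not called (adjusted p = 0.473), nor were Tirap and Ticam2. Sarm1 was not tested.

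Of 20 kinase and ligase genes, 1 was called lower and 2 higher at day 28 (15% called, against 15.2% of all genes). Ikbke, which encodes the interferon-inducing kinase IKK epsilon, was at 124, 119 and 96.9 FPKM at day 5, 67.6 and 53.3 FPKM at day 14, and 50.4 and 50.8 FPKM at day 28, a fall of 1.15 (SE 0.15, adjusted p = 0.00253, edgeR). Its days were separated as well, and it was called at day 14 (-0.90, adjusted p = 0.0189). Peli2, a Pellino ubiquitin ligase gene, rose by 1.04 (adjusted p = 0.0115) from a low level of 2.54 FPKM, and Ikbkg, the gene of the regulatory subunit NEMO, rose by 0.49 (adjusted p = 0.0244). Irak1, Irak2, Irak4 and Traf6, the core of the MyD88 branch, had log2 differences of -0.17, -0.42, -0.14 and -0.33, and none was called. Of 18 inhibitor genes 2 were called (11.1%, under the 15.2% of all genes), both lower. Irak3, which encodes the inhibitory kinase IRAK-M, was at 47.5, 46.4 and 37.5 FPKM at day 5, 30.4 and 24.8 FPKM at day 14, and 22.2 and 20.2 FPKM at day 28, and fell by 1.03 (SE 0.15, adjusted p = 0.00317). Its libraries were ordered by day without overlap, and it was called at day 14 too (-0.66, adjusted p = 0.0383). Trafd1 fell by 0.52 (adjusted p = 0.0412), and Tnfaip3, the A20 gene, was not called (-0.31, adjusted p = 0.328). Several of these calls were lost when a library was left out. The log2 changes moved less, from 0.42 to 0.56 for Ikbkg and from -0.59 to -0.47 for Trafd1 between days 5 and 28. Those of Ikbkg and Trafd1 were lost without any library of day 5 or day 28 (adjusted p = 0.0529 to 0.147 for Ikbkg and 0.0591 to 0.175 for Trafd1), and that of Peli2 without day 5 replicate 1 (0.0506), day 28 replicate 1 (0.0592) or day 28 replicate 2 (0.0741). At day 14, Ikbke was not called without day 5 replicate 1 (0.0663) or 2 (0.0683), and Irak3 without any day 5 library (0.0673 to 0.123), day 14 replicate 2 (0.141) or either day 28 library (0.0578 and 0.0580).

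Of 19 accessory genes 2 were called lower and 2 higher at day 28 (21.1% called, against 15.2% of all genes). Lgmn, the gene of an endosomal protease that can process nucleic acid-sensing receptors, fell by 1.01 (adjusted p = 0.00485, edgeR), from 2005 to 983 FPKM. Slc15a3, a lysosomal peptide transporter gene, fell by 0.78 (adjusted p = 0.0396). Ctsk, the cathepsin K gene, rose from 62.8, 50.9 and 55.0 FPKM at day 5 to 160 and 341 FPKM at day 14 and 456 and 390 FPKM at day 28, a log2 change of 2.93 (SE 0.27, adjusted p = 7.06e-04). Pld3, which encodes an endolysosomal nuclease, rose by 0.53 (adjusted p = 0.0183). By day 14, Ctsk (2.17, adjusted p = 0.00926) and Pld3 (0.65, adjusted p = 0.0212) were called higher and Ctsl lower (-0.63, adjusted p = 0.0342). The day 28 call was lost for Lgmn without day 28 replicate 1 (0.0566), for Slc15a3 without any day 5 or day 28 library (0.0677 to 0.219), and for Pld3 without day 5 replicate 1 (0.0724) or 3 (0.0711) or either day 28 library (0.0599 and 0.0796). The day 14 call was lost for Pld3 without any day 5 library (0.0668 to 0.0870) and for Ctsl without any day 5 library (0.0909 to 0.109) or day 14 replicate 2 (0.0876). Unc93b1, which encodes the chaperone that carries endosomal receptors out of the endoplasmic reticulum, was at 474 ± 28.1 FPKM at day 5, 533 ± 73.1 FPKM at day 14 and 365 ± 35.8 FPKM at day 28, with no call (adjusted p = 0.0956 between days 5 and 28). Cnpy3, a chaperone gene for several receptors, differed by -0.33 (adjusted p = 0.0593), and Cd180, the gene of a TLR4-like protein of B cells and macrophages, by -0.67 (adjusted p = 0.0691).

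In all, 6 of the 62 genes were called between days 5 and 14 (9.68%, against 4.78% of all genes), 4 lower and 2 higher. Between days 14 and 28 none was called by edgeR, against 0.0622% of all genes. There, 10 had an unadjusted p under 0.05, against 12.2% of all genes, and DESeq2 called 4, against 2.58% of all genes. The count for days 5 and 28 was 5, 7 and 7 without day 5 replicates 1, 2 and 3, 4 and 5 without day 28 replicates 1 and 2, and 26 without either day 14 library. That for days 5 and 14 was 1, 1 and 2 without the day 5 replicates, 17 without day 14 replicate 1 and 3 without day 14 replicate 2, and that for days 14 and 28 was 10 without day 14 replicate 2. Over the libraries left out, calls among all genes ranged from 3.55% to 21.6% for days 5 and 28, from 0.404% to 13.6% for days 5 and 14, and from 0% to 5.07% for days 14 and 28. With each of the 7 libraries left out in turn, Myd88, Ikbke, Irak3 and Ctsk remained called between days 5 and 28. The highest adjusted p in these fits was 0.0256 for Myd88, 0.0369 for Ikbke, 0.0331 for Irak3 and 0.0145 for Ctsk.

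Genes that the receptors are known to induce were read from fixed lists. Of 16 genes induced through MyD88 and NF-kB, 3 were called lower between days 5 and 28 and none higher (18.8%, against 15.2% of all genes called and 7.51% called lower). Their median was -0.60, against 0.033 for all genes. These were Il1b (-0.63, adjusted p = 0.0129), Sod2 (-0.92, adjusted p = 0.0226) and Icam1 (-0.87, adjusted p = 0.0216, all from edgeR). Each lost its call without day 28 replicate 1 (adjusted p = 0.0656, 0.115 and 0.160) and without replicate 2 (0.0674, 0.115 and 0.0608). Sod2 and Icam1 also lost theirs without day 5 replicate 1 (0.0731 and 0.0706) or 2 (0.0621 and 0.0590), and Il1b without day 5 replicate 2 (0.0555) or 3 (0.0526). At day 14 against day 5, 3 of the 16 were called lower (18.8%, against 4.78% of all genes called and 1.94% called lower). They were Il1b (-0.79, adjusted p = 0.0184), Il6 (-1.71, adjusted p = 0.0388) and Cxcl1 (-0.75, adjusted p = 0.0366, all from edgeR). Each was not called without day 5 replicate 1 (0.0561, 0.1004 and 0.0961), 2 (0.0668, 0.108 and 0.103) or 3 (0.0721, 0.0673 and 0.0673). Il6 and Cxcl1 were also not called without day 14 replicate 2 (0.136 and 0.0968) or either day 28 library (0.0559 to 0.0602). Marco, with no fragment at day 28 and 0.328 FPKM at day 5, was tested but its fitted fold change is not given.

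Of 12 genes induced through TRIF and interferon, 6 were called between days 5 and 28, 5 lower and 1 higher (50% of the list, against 15.2% of all genes, median -1.13). Irf7, the gene of an interferon regulatory factor used downstream of TLR7 and TLR9, was at 610, 522 and 433 FPKM at day 5, 626 and 269 FPKM at day 14, and 105 and 91.5 FPKM at day 28. Day 14 replicate 1 again lay with day 5, and day 28 lay far below, with a log2 difference of -2.40 (SE 0.32, adjusted p = 0.00267, edgeR) that was called without each library in turn (highest adjusted p = 0.0409). Isg15 (-1.96, adjusted p = 0.0115), Ifit2 (-2.02, adjusted p = 0.00981), Ifit3 (-1.56, adjusted p = 0.0148) and Ifit1 (-1.33, adjusted p = 0.0378) were lower too. Without day 28 replicate 2 none of these 4 was called (adjusted p = 0.0744, 0.0651, 0.0946 and 0.148), and without day 28 replicate 1 Isg15 (0.107), Ifit3 (0.0621) and Ifit1 (0.190) were not. Ifit1 was also lost without day 5 replicate 1 (0.0844), 2 (0.110) or 3 (0.0659). Cxcl9 was higher, at 0.0169 to 0.212 FPKM at day 5 against 1.73 and 0.615 FPKM at day 28 (adjusted p = 0.0475, edgeR). It had only 14, 11 and 1 fragments in the day 5 libraries, the last under the detection floor of 3. Its call was lost without any day 5 library (0.103 to 0.105, edgeR) or any day 28 library. No gene of this list was called by edgeR between days 5 and 14 or between days 14 and 28. Between days 5 and 14 none had an unadjusted p under 0.05, against 24% of all genes. Between days 14 and 28 there were 5 at that level, against 12.2% of all genes.

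**Figure D5:**
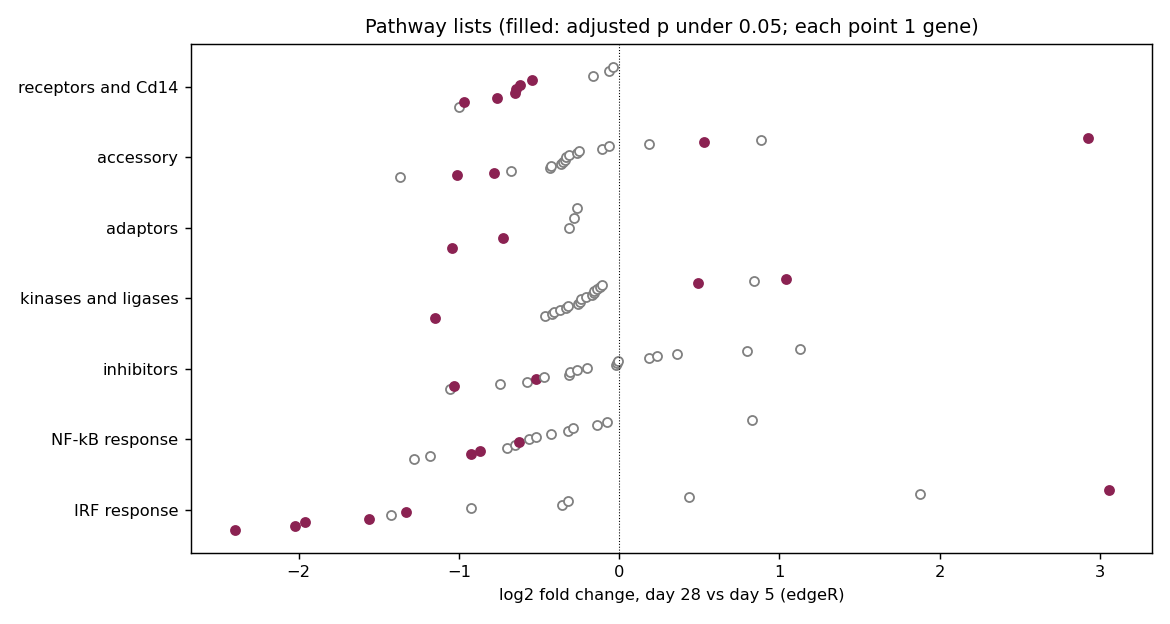
Log2 fold change of single genes between days 5 and 28 (horizontal axis) for the members and for each list of the pathway (rows), with filled points at an adjusted p under 0.05. Filled points of the members, adaptors, inhibitors and NF-kB response genes all lie below 0, whereas the accessory, kinase and interferon response (IRF) lists have some on each side. The only filled point above 0 in the IRF list is Cxcl9, which had 1 fragment in day 5 replicate 3. Marco, with no fragment at day 28, is left out of the plot.

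Several genes of other cell types or cell states were also called. Among all genes, 15.2% were called between days 5 and 28 and 4.78% between days 5 and 14. Whether the marker calls held with single libraries left out is not reported here. Of 4 monocyte genes tested, 3 were lower and 1 higher at day 28. Of these, Ly6c2 (-2.90, adjusted p = 0.0206) and Vcan (-1.44, adjusted p = 0.00180) were lower at day 28 than at day 5 and Ccr2 was higher (0.74, adjusted p = 0.0259, edgeR), and the list had a summed level of 166 to 211 FPKM at day 5 and 120 to 175 FPKM at day 28. Vcan was also lower at day 14 (-1.55, adjusted p = 0.00699). Of 9 neutrophil genes 6 were tested, and 1 was called between days 5 and 28, Csf3r, which was lower (-1.09, adjusted p = 0.00581, edgeR). The granule genes Ngp, Camp, Mpo and Ltf were near 0 (at most 1.25 FPKM), and the summed level was 333 to 356 FPKM at day 5, 585 to 599 at day 14 and 153 to 293 at day 28. Of 4 endothelial genes, Pecam1 and Kdr were lower and Tek was higher, with a sum of 14.6 to 26.2 FPKM at day 5 and 3.66 to 6.49 FPKM at day 28. Fibroblast genes summed to 147 FPKM in day 14 replicate 1, against 21.5 to 55.2 FPKM in the other libraries, and Col1a2 was called higher at day 14 than at day 5. Of the dendritic cell genes, Tcf4 (-0.69, adjusted p = 0.0181) and Wdfy4 (-0.50, adjusted p = 0.0378) were lower at day 28, while Xcr1, Clec9a and Itgae stayed under 1 FPKM. Mast cell genes and T or NK cell genes summed to at most 1.43 FPKM, and eosinophil genes to 1.68 to 5.69 FPKM, with Siglec5 higher at day 28 (1.85, adjusted p = 0.0105). The summed level of Schwann cell genes ranged from 10.7 to 11.5 FPKM on day 5, 12.7 to 19.9 on day 14 and 17.7 to 19.9 on day 28. Nearly all of this was Mbp, the myelin basic protein gene and the only one of the 5 that was tested, which was higher at day 28 (0.75, adjusted p = 0.0296), while Sox10 and S100b were at most at 0.169 FPKM. Of 8 macrophage genes, Emr1, which encodes the sort marker F4/80, was lower at day 28 (-1.01, adjusted p = 0.00650). The part of these genes' cells in the levels of the receptors was not tested.

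Over the 7 libraries, the genes with the profile most like each called member were found by Pearson's r of log2 FPKM among 7555 or 7556 genes with a mean of at least 5 FPKM, as a description, since the libraries share days and the highest of so many values is high by construction. These were Orai2 (r = 0.994) for Tlr2, Chic2 (0.996) for Tlr1, Nipa2 (0.996) for Tlr4, Tmem2 (0.996) for Tlr7, Orai1 (0.983) for Tlr3 and Sfpq (0.997) for Cd14.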

How the data were processed

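The 7 bulk RNASeq libraries of sorted macrophages were grouped by the labelled time point, giving 3 for day 5 and 2 each for days 14 and 28. PolyA+ RNA was made into libraries with the NEBNext Ultra kit, and the authors used cutadapt 1.8, TopHat2 2.0.13 on the mm10 genome and Cuffdiff 2.2.1 (versions per the submitters' processing notes). The deposited expected counts are Cuffdiff's estimate of the fragments of a gene before scaling, of which 1.01% were not whole. The deposited scaled signal, those fragments after a common scaling of all libraries, was used in an alternative only. The authors computed the deposited FPKM from scaled fragments and transcript length. The use of strand and the sharing of reads between similar genes are not given in the sources used here.

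Expected counts were rounded, and edgeR 4.0.16 (R 4.3.3) was run with TMM scaling, its expression filter by day and the quasi-likelihood F test, with all 7 libraries in 1 fit, day as the only factor and Benjamini-Hochberg adjustment over 12858 genes per comparison. Calls needed an adjusted p under 0.05, and 95% intervals and SE follow from the F statistic. The study's own test, that of Cuffdiff, was not rerun. Stringent calls also needed a 2-fold difference and a mean FPKM of at least 5. The detection floor of 3 fragments covers counting error only. Genes were named by rule: all members, Tlr5, Tlr11, Tlr12, every called gene of the pathway and response lists (up to 4 per list and comparison, except that all called interferon response genes are given), and the gene most like each called member. Pathway genes named without a call, and marker genes singled out, were picked with their values known. The members and lists were chosen with earlier results of these data known. Some marker genes of other cell types are not reported here.

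Alternatives were DESeq2 1.42.0, other library scalings, no filter, limma 3.58.1 on log2(FPKM + 1) or log2(FPKM + 0.1), fits of the compared days only, the replicate number as a block, leaving out each library, and stricter calls. The tests were tried on simulated data with the same spread for all genes and days. The spread of the real libraries differed between days, so that trial cannot show how the tests perform on them. Loci are from GENCODE M21 on GRCm38 and upstream windows from RefSeq, matched by symbol for 7 of the 10 members. Figures were drawn with matplotlib 3.10.9.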

Additional observations from a re-analysis of the deposited data

How the results depend on the processing

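The direction of all 6 members called between days 5 and 28 was the same under every alternative tried, and so was that of Cd14 between days 5 and 14. Of 450 values (10 members, 3 comparisons, 15 alternatives), 378 kept direction and side of the threshold, 33 lost and 14 gained a call, and 25 changed sign, none of them of a called difference. Between days 5 and 28, 6 members were called, 7 with DESeq2, without the filter and with only both days fitted (adding Tlr9), 1 with the replicate block (Tlr2, adjusted p = 0.0252), 0 by the stringent rule, 1 at an adjusted p under 0.01, and 1 to 7 with single libraries left out. Between days 5 and 14 the count of 1 became 2 with DESeq2 and without the filter (Cd14 and Tlr2), 0 with limma at either pseudocount, with the block, by the stringent rule and at an adjusted p under 0.01, and 0 to 4 with single libraries left out. Between days 14 and 28 the count of 0 became 1 with DESeq2 and without the filter (Tlr9), and 0 to 2 with single libraries left out. The count of pathway genes was 6 between days 5 and 14, 11 with DESeq2, 12 without the filter, 3 with limma at either pseudocount, 0 with the block and 1 to 17 with single libraries left out. Between days 14 and 28 it was 0, 4 with DESeq2, 1 without the filter and 0 to 10 with single libraries left out. Between days 5 and 28 it was 11, 22 with DESeq2, 17 without the filter, 26 with only both days fitted, 6 with the block and 4 to 26 with single libraries left out. Calls among all genes moved too, from 15.2% to 19.3% with DESeq2, 14.3% without the filter, 21.6% with only both days fitted and 5.72% with the block between days 5 and 28, and from 4.78% to 10.6%, 8.26%, 2.53% and 0.0467% between days 5 and 14. Of 435 values of called genes in the pathway and response lists, 304 kept their call, 131 lost it and none changed sign. The endosomal share was higher by 5.05 percentage points from day 5 to 14, 2.10 from day 14 to 28 and 7.15 from day 5 to 28, without Tlr13 by 4.16, 0.162 and 4.32, and with single libraries left out by 3.69 to 6.28, 0.294 to 3.91 and 5.34 to 8.96. The cause of these shifts was not tested.

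Replicate numbers come from the labels. Deviations of same-numbered libraries correlated at 0.268 between days 5 and 14, -0.001 between days 5 and 28 and -0.146 between days 14 and 28 (7556 genes, 2 numbers). Each value rests on a single difference between libraries per day, so it cannot decide whether same-numbered libraries were paired. With the replicate block the adjusted p between days 5 and 28 was 0.0520 for Tlr1, 0.0599 for Cd14, 0.0700 for Tlr7, 0.0724 for Tlr3 and 0.116 for Tlr4, and that of Cd14 between days 5 and 14 was 0.117. With the day 28 numbers swapped, a pairing added after the correlations were seen, 1 member was called from day 5 to 14, 0 from day 14 to 28 and 7 from day 5 to 28.

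The changes of sign were these. For Tlr8 from day 5 to 14 (0.0021 in the fit reported) the log2 fold change was -0.0083 with DESeq2, -0.0084 with RLE size factors, -0.0070 with Cuffdiff's scaling, -0.0032 with limma at either pseudocount and -0.024 with the block, and for Tlr9 (0.079) it was -0.018 and -0.024 with limma and -0.050 with the block. The other changes came with single libraries left out. From day 5 to 14 these fits ran from -0.046 to 0.079 for Tlr8, -0.59 (without day 14 replicate 1) to 0.54 for Tlr9 and -0.47 to 0.0082 for Tlr13. From day 14 to 28 they ran from -0.28 to 0.022 for Tlr1, -0.56 to 0.0064 for Tlr7, -0.21 to 0.055 for Tlr8, -0.17 to 0.31 for Tlr13 and -0.19 to 0.17 for Cd14. From day 5 to 28 they ran from -0.12 to 0.069 for Tlr6 and -0.21 to 0.063 for Tlr8.

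Leaving out a library of day 14 or 28 left 1 library there, which was then assumed to vary like the other days. With 2 or 3 libraries a day, the precision was set by the spread between libraries rather than by depth, since the sparsest member still had 210 fragments.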
